A study of Mus musculus with 12 samples.

Results

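The genes described here are 39 macrophage and leukocyte genes, followed in cultures of embryonic fibroblasts that were wildtype or lacked the retinoblastoma gene and were treated or not with cisplatin. The list holds genes known from macrophages and other white blood cells and was chosen by gene name, without a threshold on any value. This list and the further lists below were chosen with earlier results of these data known. Counts set beside those of all genes are therefore descriptions and not independent tests. The annotation of the array gave 38 of the 39 genes at least 1 probe set that maps to a single gene, and none to the kinase gene Lyn. These genes had 56 probe sets. After the 40% of probe sets with the lowest mean signal had been left out, 39 of the 56 were tested, and 31 of the 39 genes had a tested probe set, among 7945 genes tested in all. The other 7 genes with a probe set, Fcgr1, Itgam, Cd48, Mrc1, Aif1, Trem2 and Cd83, lay below the filter and were not tested. Of the 31 genes, 18 are known mainly from blood cells and are called leukocyte-restricted here, among them Lyz2, C1qa, Adgre1 and Ptprc. The other 13, such as Cd14, Cd68 and Ctss, were not put in that class, a division made from general knowledge that is not sharp, since it leaves out genes such as Cd52 and Lcp1.

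Macrophages are phagocytes that take up particles through Fc, complement and scavenger receptors and digest them in lysosomes with enzymes such as lysozyme and cathepsins. The transcription factor PU.1, encoded by Spi1, and the receptor for macrophage colony-stimulating factor, encoded by Csf1r, direct their formation and survival. Embryos contain macrophages from early stages on, and cultures prepared from whole embryos can carry some of them along with fibroblasts, which secrete Csf1, the ligand of that receptor.

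The cultures were mouse embryonic fibroblasts (MEFs), primary connective tissue cells from 13.5-day embryos, at passage 2. The 4 groups were Rb null cells after 24 h in 16 µM cisplatin, a drug that forms crosslinks in DNA, wildtype cells after the same exposure, untreated Rb null cells and untreated wildtype cells. Each group had 3 hybridizations to Affymetrix mouse arrays, 12 arrays in all, from 6 µg of total RNA each, and all cells were grown in DMEM with 10% serum. The design describes a single RNA sample for each group hybridized 3 times, so the errors and p-values below may cover no more than technical spread between arrays, and a difference between groups cannot be told apart from one between cultures. Values are the deposited signals in arbitrary units, made with MAS5, the Affymetrix software that combines the probes of a probe set, and n = 3 hybridizations per group throughout. Differences are on the scale of log2(signal + 10.4), with standard errors from limma, and understate the change of weak genes. A gene is said to be higher or lower, to have risen or fallen, where limma gave a Benjamini-Hochberg adjusted p under 0.05 over 13575 probe sets and a difference of at least 1.5-fold. In RNA from a whole culture, fewer cells of a type and less RNA per cell cannot be told apart.

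The Rb1 signal averaged 89.6 ± 14.5 in cisplatin-treated Rb null and 382.9 ± 60.1 in cisplatin-treated wildtype cells (SD), and 94.0 ± 9.99 in untreated Rb null and 459.7 ± 35.4 in untreated wildtype cells. The untreated wildtype arrays stood apart in sex-linked transcripts. Y-linked Eif2s3y averaged 478.1 there, against 6.63 or less in the other 3 groups. Xist, which is transcribed from the inactive X chromosome, averaged 132.2 in that group and 2379.3 or more in the others. Comparisons with untreated wildtype cells therefore set cultures of different sex-linked expression against each other, and the comparison after cisplatin and the Rb null response to cisplatin do not use that group. A probe set at the 3′ end of 18S rRNA averaged 383.0 ± 91.7 in cisplatin-treated Rb null, 213.5 ± 29.2 in cisplatin-treated wildtype, 110.3 ± 10.4 in untreated Rb null and 105.7 ± 14.5 in untreated wildtype cells. Its part in the results below was not tested. Arrays of the same group correlated at 0.981 to 0.992 over probe sets, and arrays of different groups at 0.806 to 0.952.

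After cisplatin, macrophage and leukocyte genes were lower in Rb null than in wildtype cells for 19 of the 31 genes and higher for 0. The complement gene C1qa, the protease gene Ctss, the tetraspanin gene Cd53, the lymphocyte and macrophage surface gene Cd52 and the lysozyme gene Lyz2 differed most. Over all 7945 genes, 13.3% were lower and 9.67% higher in this comparison. The 31 log2 differences ran from -2.39 to 0.34 with a median of -0.80, beside a median of -0.051 over all genes tested. Of the 18 leukocyte-restricted genes, 12 were lower, with a median of -0.99, and of the other 13 genes 7 were lower, with a median of -0.73. The 12 genes that did not pass were Spi1, Ncf4, Cd68, Fcgr3, Coro1a, Cyba, Fcgr2b, Cybb, Msr1, Cd14, Csf1r and Cd74. Without the untreated wildtype arrays in the fit, the count was again 19 lower. Of the lower genes, C1qa (104.4), Fcer1g, Mpeg1, Ptprc, Cd52 and Lcp1 averaged below the filter's signal of about 104.6 in treated Rb null cells. They passed the filter only through groups where they were higher. Without the filter 20 of 38 genes were lower and 0 higher, but shares of all genes were not computed for that setting.

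**Figure D1:**
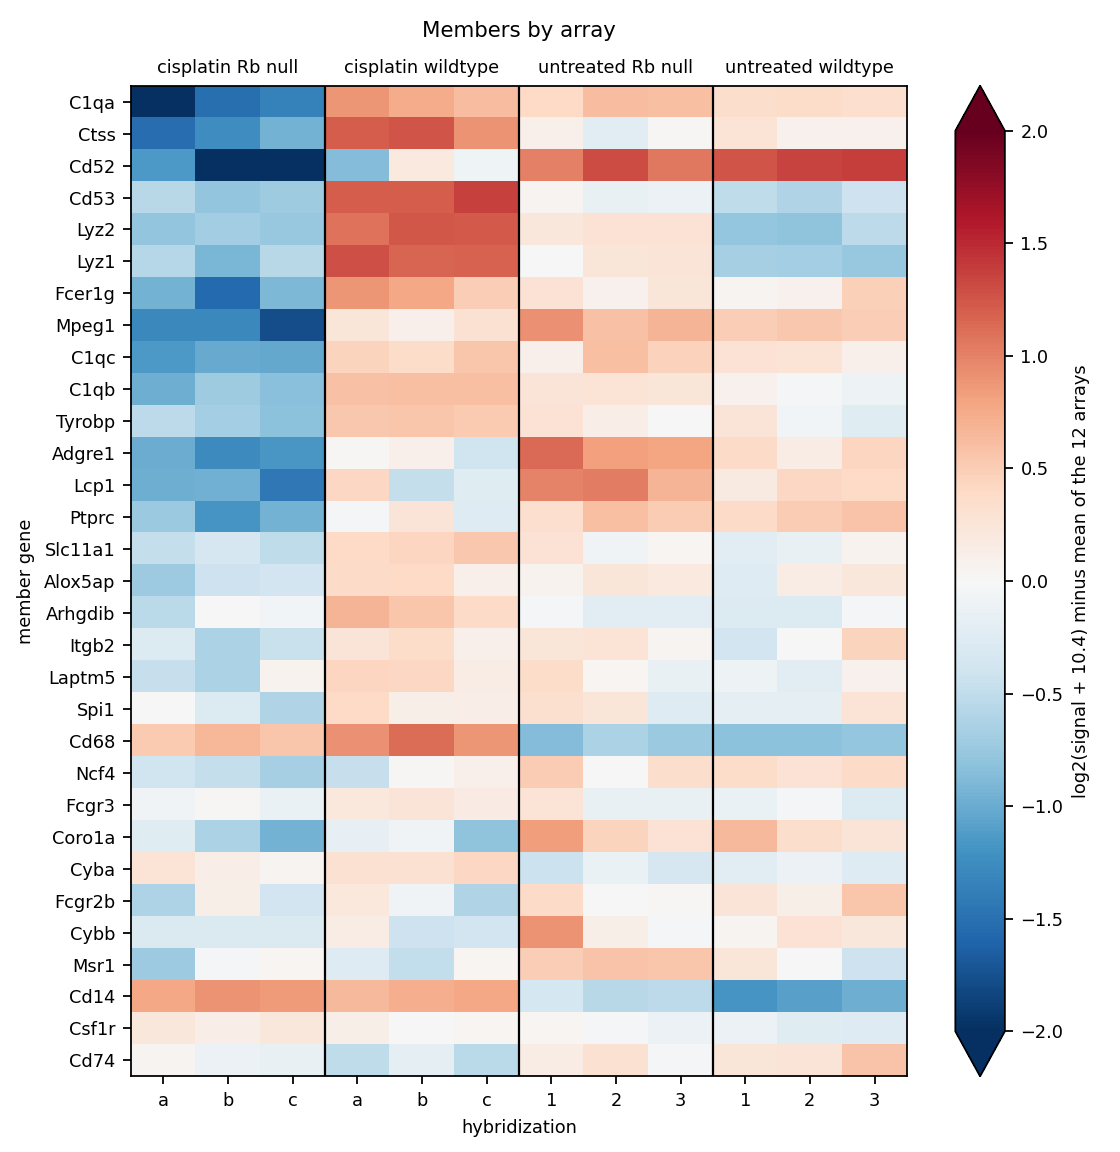
Heat map of the 31 tested genes (vertical axis) on each of the 12 arrays (horizontal axis, hybridizations a to c or 1 to 3 of each group), with colour giving log2(signal + 10.4) minus the mean of the 12 arrays. Genes are sorted by their difference between Rb null and wildtype cells after cisplatin, from C1qa at -2.39 to Cd74 at 0.34. For 23 of the 31 genes the lowest group mean is that of cisplatin-treated Rb null cells, a count not computed for all genes.

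Untreated Rb null cells differed less from untreated wildtype cells. Macrophage and leukocyte genes were higher for 5 of the 31 genes, Lyz2, Lyz1, Cd14, Adgre1 and Msr1, and lower for 0, while 8.07% of all genes were higher and 5.08% lower. The log2 differences ran from -0.22 to 0.97 with a median of 0.16, beside -0.0093 over all genes tested, and 24 of the 31 lay above 0. The probe set of Lyz1 is marked for cross-hybridization. Msr1 (log2 0.60 ± 0.22, adjusted p = 0.0484) passed narrowly, and with quantile normalization or median centring 2 genes, Lyz2 and Lyz1, were higher. The genotype difference ran in opposite directions with and without cisplatin for Lyz2, Lyz1 and Adgre1, each of which passed the test in both comparisons. Lyz1 values cannot be told apart from Lyz2 transcripts, and the untreated difference of Adgre1 was lost under 6 of 24 alternative settings.

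**Figure D2:**
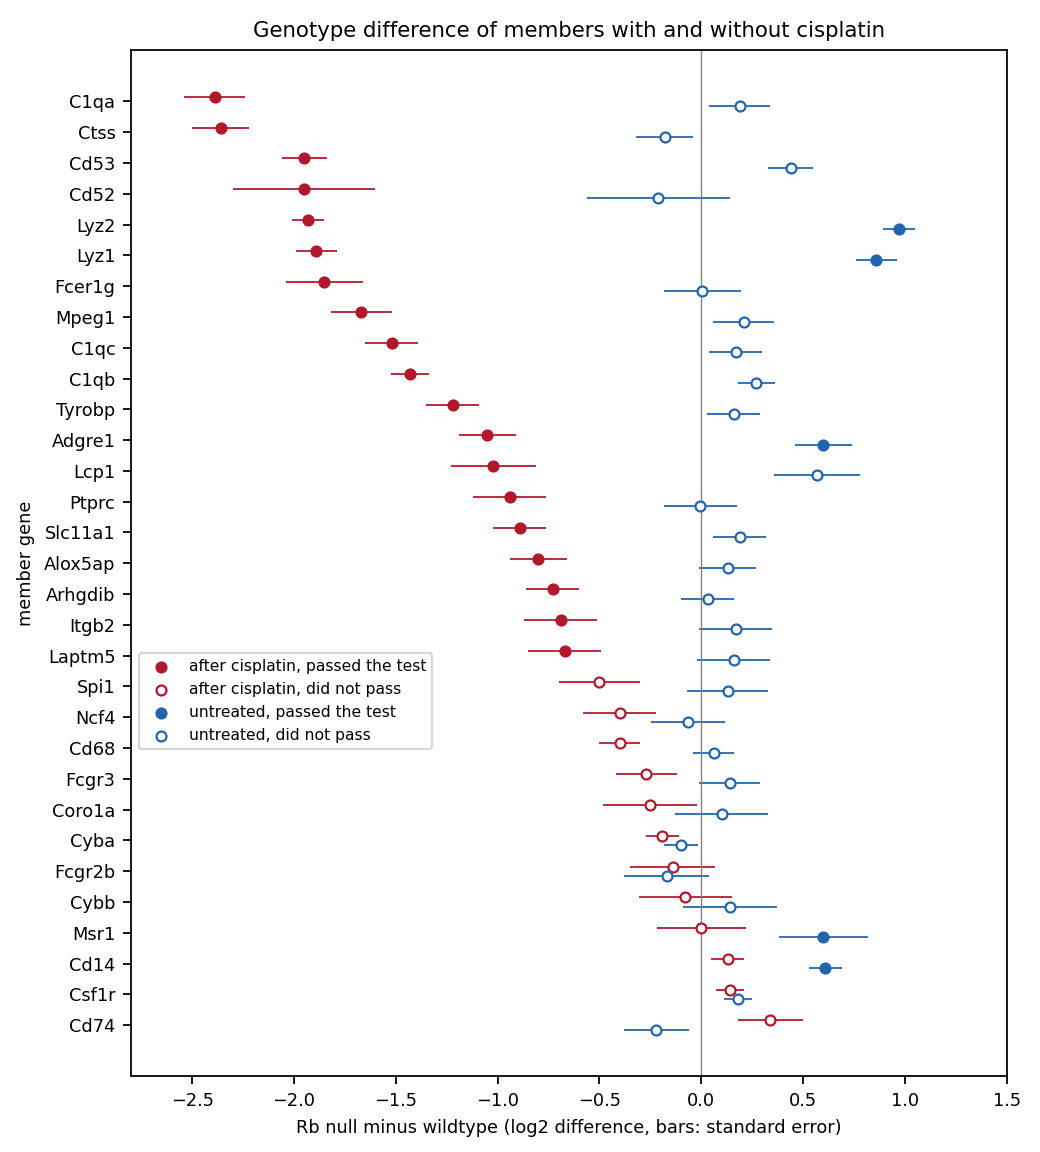
Log2 difference of Rb null minus wildtype cells (horizontal axis, bars are standard errors) for each of the 31 genes (vertical axis) after cisplatin in red and untreated in blue, with filled points for differences that passed the test. After cisplatin 19 genes are filled and all of these lie left of 0, and without treatment 5 are filled and lie right of 0.

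In Rb null cells, cisplatin was followed by a fall in 20 of the 31 genes and a rise in 2, Cd14 and Cd68. Among all genes 20.3% fell and 16.6% rose, so that risers made up 44.9% of passing genes, or 58.0% when arrays were centred on their medians. The log2 changes ran from -3.32 for Cd52 to 1.33 for Cd68, with a median of -0.78, beside -0.017 over all genes tested. Of the 18 leukocyte-restricted genes 14 fell and 0 rose, with a median of -0.92. Cd52, Ptprc, Lcp1, Mpeg1, Fcer1g, Coro1a, Ncf4 and Cybb averaged 38.1 to 92.2 in treated Rb null cells, and C1qa averaged 104.4. These averages are below the filter's signal of about 104.6, so these genes passed the filter only through groups where they were higher. Without the filter 21 of 38 genes fell and 2 rose, again with no share of all genes computed. With quantile normalization or median centring 16 of the 31 genes fell, as Cd53, Itgb2, Cybb and Alox5ap no longer passed. In wildtype cells, cisplatin was followed by a rise in 8 of the 31 genes, Lyz1, Lyz2, Cd14, Cd68, Cd53, Ctss, Arhgdib and C1qb, and a fall in 3, Cd52, Coro1a and Cd74. These shares lay closer to those of all genes, of which 14.8% rose and 12.7% fell. The median log2 change was 0.26, in a range of -1.58 to 1.91, beside 0.057 over all genes tested. Leaving out 1 array gave 2 to 5 falling genes in wildtype cells. Coro1a, at 96.9, and Cd74, at 103.9, averaged below the filter's signal in treated wildtype cells. Both passed the filter only through groups where they were higher. Without the filter 8 of 38 genes rose in wildtype cells and 4 fell, with no share of all genes computed.

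The difference between these responses, Rb null minus wildtype, was tested as an interaction and was negative and past the test for 19 of the 31 genes and positive for 0, where 15% and 8.7% of all genes were. Positive differences made up 36.7% of those passing over all genes, or 51.3% after median centring, under which 19 of the 31 genes were again negative and 1, Cd74, positive. Its median was -0.93 on the log2 scale, beside -0.075 over all genes tested. Among the negative genes, C1qa, Fcer1g, Mpeg1, Ptprc, Cd52 and Lcp1 averaged below the filter's signal in treated Rb null cells. These genes passed the filter only through groups where they were higher. Without the filter the difference was negative for 19 of 38 genes and positive for 0, with no share of all genes computed. Of the 31 genes, 5 rose in wildtype and fell in Rb null cells, namely Lyz1, Lyz2, Ctss, C1qb and Cd53. The share of all genes with this pattern was not computed. Lyz1 values cannot be told apart from Lyz2 transcripts. The C1qb rise in wildtype cells was lost under 4 of 23 alternative settings, and its cross-hybridizing probe sets did not pass there. The Cd53 fall in Rb null cells was lost under 6 of 23. Another 13 of the 31 genes fell in Rb null cells and did not pass in wildtype cells. Cd52 and Coro1a fell in both genotypes, and Cd14 and Cd68 rose in both. With the probe sets used, 7 genes passed in neither, namely Csf1r, Fcgr2b, Fcgr3, Laptm5, Spi1, Cyba and Slc11a1. Arhgdib rose in wildtype cells and Cd74 fell there, and neither passed in Rb null cells.

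**Figure D3:**
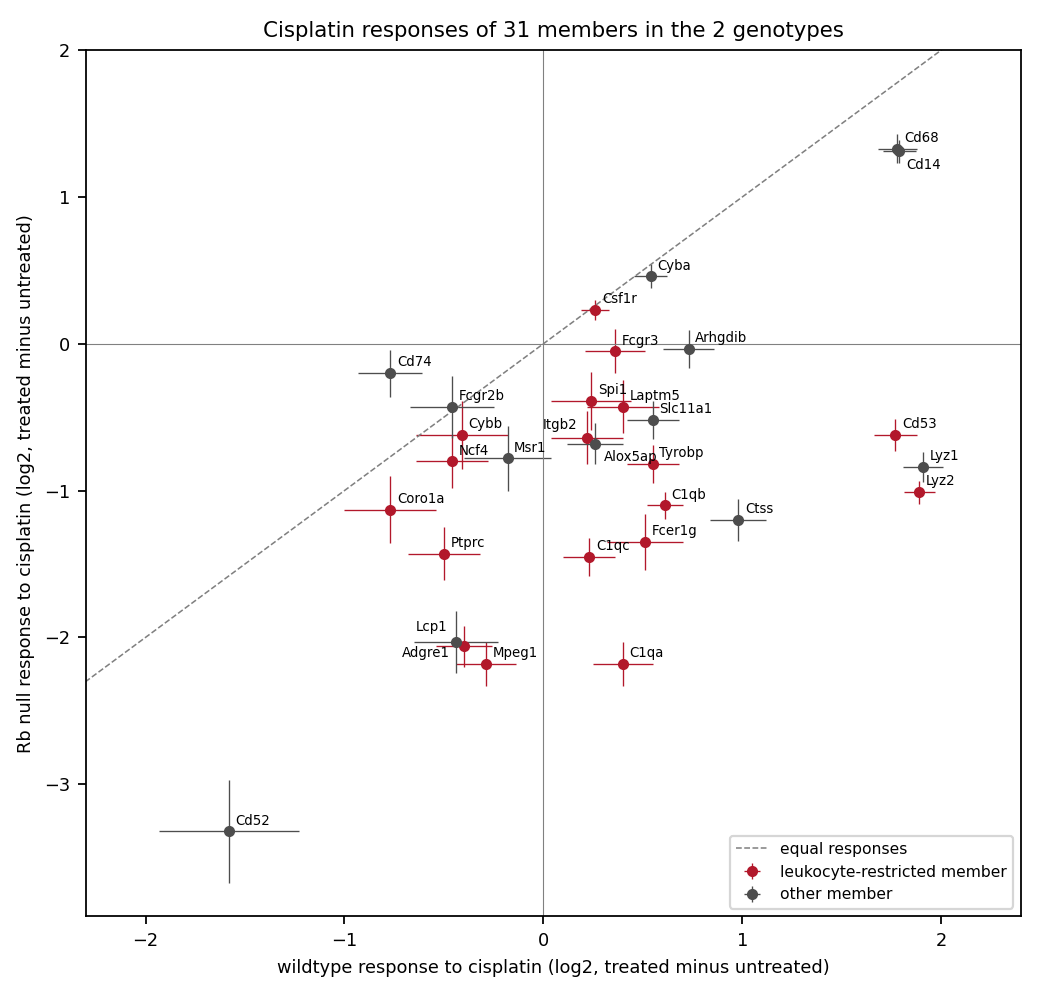
Log2 response to cisplatin in wildtype cells (horizontal axis) and in Rb null cells (vertical axis) for the 31 genes, with standard errors as bars, leukocyte-restricted genes in red and the others in grey. Cd14 and Cd68 lie at the upper right, Lyz1, Lyz2 and Cd53 at the right below 0, and Adgre1, Lcp1 and Mpeg1 at the lower middle near -2 on the vertical axis.

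Lyz2 encodes the lysozyme of macrophages, which cleaves bacterial cell walls. It had signals of 1057.7, 1125.3 and 1079.3 in cisplatin-treated Rb null cells, 3884.3, 4359.0 and 4278.9 in cisplatin-treated wildtype cells, 2136.1, 2247.9 and 2237.4 in untreated Rb null cells, and 1062.5, 1041.8 and 1266.4 in untreated wildtype cells. Cisplatin-treated wildtype cells were highest and untreated Rb null cells came next, without overlap, whereas the cisplatin-treated Rb null and untreated wildtype arrays overlapped. The log2 difference between Rb null and wildtype cells was -1.93 ± 0.078 after cisplatin (adjusted p = 2.94e-10) and 0.97 ± 0.078 without it (adjusted p = 2.28e-07). The responses differed by -2.90 ± 0.11 on the log2 scale (adjusted p = 4.05e-10), the most negative difference among the 31 genes. Lyz1, the neighbouring lysozyme gene of Paneth cells, is nearly identical in sequence to Lyz2. Its values come from a probe set marked for cross-hybridization, which averaged 1480.7 ± 205 in cisplatin-treated Rb null and 5494.5 ± 265 in cisplatin-treated wildtype cells. The probe set of Lyz1 without that mark lay below the filter, with signals between 19.8 and 92.2 on all 12 arrays, so the Lyz1 values cannot be told apart from Lyz2 transcripts.

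Ctss encodes cathepsin S, a lysosomal protease that trims the invariant chain during antigen presentation. Its signals were 157.1, 192.3 and 237.7 in cisplatin-treated Rb null cells, 1101.5, 1136.6 and 879.9 in cisplatin-treated wildtype cells, 503.4, 399.3 and 477.5 in untreated Rb null cells, and 566.4, 499.6 and 496.6 in untreated wildtype cells. The treated groups lay below and above both untreated groups, and the untreated groups overlapped. Ctss fell by 1.20 on the log2 scale in Rb null cells (SE 0.14) and rose by 0.98 ± 0.14 in wildtype cells. Mpeg1 encodes perforin-2, a pore-forming protein of macrophages. It had signals of 70.0, 69.4 and 46.6 in cisplatin-treated Rb null cells, 220.5, 199.7 and 230.8 in cisplatin-treated wildtype cells, 358.5, 282.2 and 301.9 in untreated Rb null cells, and 265.6, 272.6 and 265.8 in untreated wildtype cells. Unlike Lyz2 and Ctss, it was highest in untreated Rb null cells, and its change with cisplatin in wildtype cells, log2 -0.29 ± 0.15, did not pass (adjusted p = 0.106). It fell by 2.18 in Rb null cells (SE 0.15, adjusted p = 9.58e-09).

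Cd68 encodes a glycoprotein of late endosomes that is abundant in macrophages and is made by fibroblasts too. Its signals were 393.0, 434.8 and 400.2 in cisplatin-treated Rb null cells, 520.6, 601.3 and 505.9 in cisplatin-treated wildtype cells, 142.7, 171.2 and 157.4 in untreated Rb null cells, and 147.8, 147.6 and 153.9 in untreated wildtype cells. Both treated groups lay above both untreated groups, which overlapped. The rise was log2 1.33 ± 0.10 in Rb null and 1.78 ± 0.10 in wildtype cells, and the difference between them, -0.46 ± 0.15, was under 1.5-fold and was not counted. Slc11a1 encodes a metal transporter of phagosomes. It was lower in Rb null cells after cisplatin (log2 -0.89 ± 0.13), while its responses of -0.52 ± 0.13 in Rb null and 0.55 ± 0.13 in wildtype cells were each under 1.5-fold.

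C1qa, C1qb and C1qc encode the chains of C1q, the recognition part of the classical complement pathway, which macrophages make in large amounts. C1qa had signals of 74.2, 112.7 and 126.4 in cisplatin-treated Rb null cells, 635.9, 578.7 and 529.9 in cisplatin-treated wildtype cells, 449.5, 529.8 and 518.8 in untreated Rb null cells, and 434.6, 439.8 and 433.5 in untreated wildtype cells. The cisplatin-treated Rb null arrays lay far below all others. C1qc had signals of 114.0, 126.5 and 124.8 in cisplatin-treated Rb null cells, 364.7, 344.0 and 394.7 in cisplatin-treated wildtype cells, 286.3, 406.4 and 368.7 in untreated Rb null cells, and 325.8, 322.1 and 285.5 in untreated wildtype cells. All 3 genes were lower in Rb null than in wildtype cells after cisplatin, C1qa by log2 -2.39 ± 0.15, C1qb by -1.43 ± 0.091 and C1qc by -1.52 ± 0.13, and none passed between the untreated genotypes. In wildtype cells the rise passed for C1qb alone, at log2 0.61 ± 0.091, while C1qa stood at 0.40 ± 0.15 and C1qc at 0.23 ± 0.13. Of the other probe sets of C1qb, both marked for cross-hybridization, one was lower in Rb null cells after cisplatin (log2 -1.40 ± 0.22) and the other stood at -0.46 ± 0.14.

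**Figure D4:**
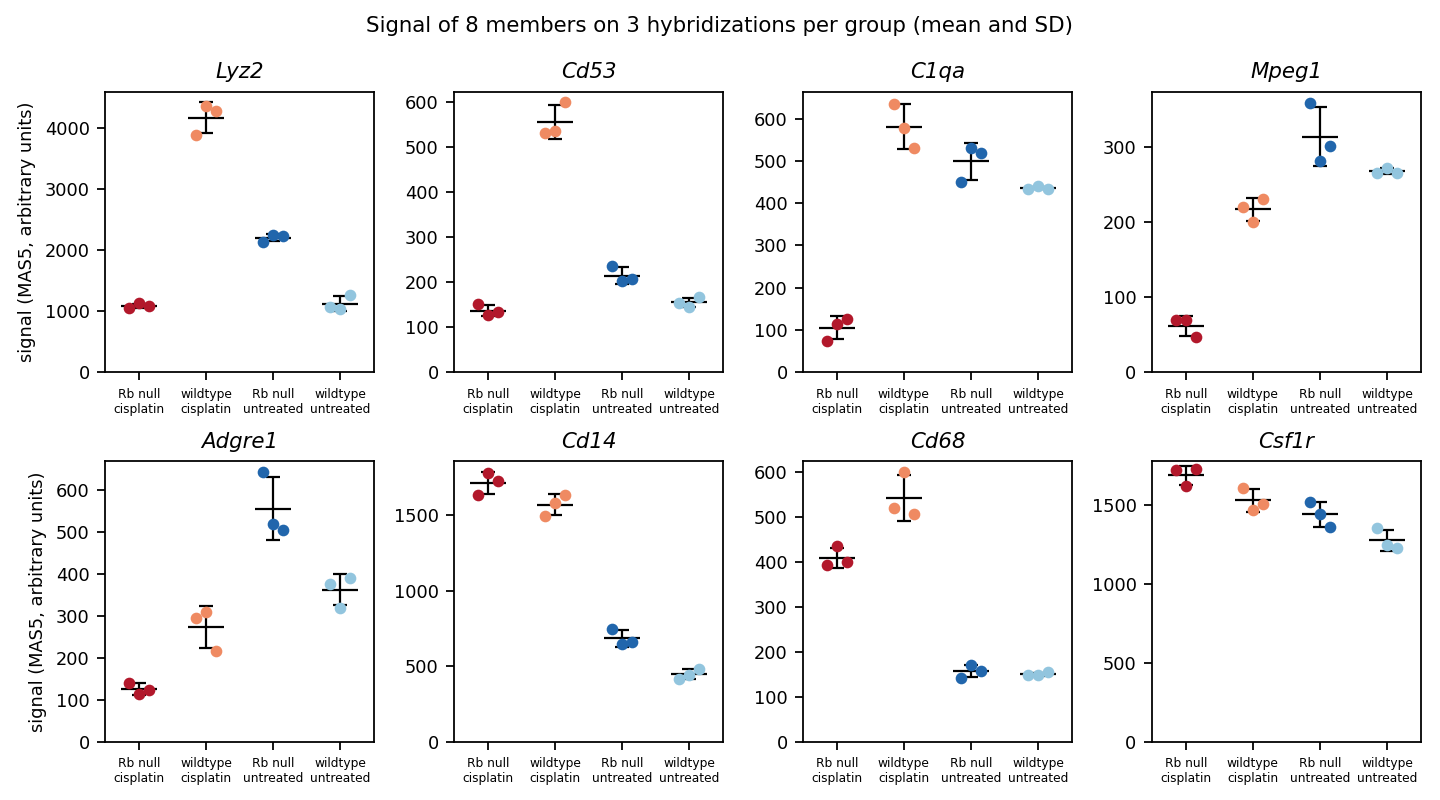
Signal in arbitrary units (vertical axis, starting at 0) of 8 genes on the 3 hybridizations of each group (points), with the group mean and SD as black bars. Lyz2, Cd53, C1qa, Mpeg1 and Adgre1 are lowest or among the lowest in cisplatin-treated Rb null cells, Cd14 and Cd68 are high in both treated groups, and Csf1r varies little.

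Tyrobp and Fcer1g encode adaptor proteins that carry the signals of activating receptors, Fcer1g as the gamma chain shared by Fc receptors. Tyrobp had signals of 240.3, 216.6 and 193.9 in cisplatin-treated Rb null cells, 516.7, 521.6 and 511.0 in cisplatin-treated wildtype cells, 433.8, 387.9 and 352.5 in untreated Rb null cells, and 424.4, 338.3 and 294.5 in untreated wildtype cells. Fcer1g had 79.2, 48.2 and 81.9 in cisplatin-treated Rb null cells, 308.4, 283.8 and 232.6 in cisplatin-treated wildtype cells, 201.2, 173.6 and 194.6 in untreated Rb null cells, and 169.0, 172.9 and 229.8 in untreated wildtype cells. In both genes the treated Rb null arrays were lowest and the treated wildtype arrays highest, without overlap, and the untreated groups overlapped. Both fell in Rb null cells, Tyrobp by log2 -0.82 ± 0.13 and Fcer1g by -1.35 ± 0.19.

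The Fc receptor genes themselves gave no such difference in the probe sets used. Fcgr3, the low-affinity activating receptor, averaged 139.4 in cisplatin-treated Rb null, 170.5 in cisplatin-treated wildtype, 146.2 in untreated Rb null and 130.9 in untreated wildtype cells and passed in no comparison. Fcgr2b, the inhibitory Fc receptor, passed in none with its brightest probe set. A weaker probe set of Fcgr2b had signals of 41.8, 44.8 and 69.3 in cisplatin-treated Rb null cells, 46.4, 66.9 and 55.0 in cisplatin-treated wildtype cells, 229.0, 233.8 and 236.2 in untreated Rb null cells, and 243.9, 150.0 and 182.2 in untreated wildtype cells. It fell with cisplatin in both genotypes, by log2 -1.99 ± 0.21 in Rb null and -1.59 ± 0.21 in wildtype cells. The remaining probe sets of Fcgr2b lay below the filter and were not tested. They averaged 56.0 and 48.5 in cisplatin-treated Rb null, 71.8 and 49.7 in cisplatin-treated wildtype, 173.1 and 118.0 in untreated Rb null and 143.5 and 95.3 in untreated wildtype cells. The brightest probe set therefore disagrees with the weaker ones.

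Cd14 encodes the co-receptor for bacterial lipopolysaccharide. Its signals were 1632.7, 1781.0 and 1721.8 in cisplatin-treated Rb null cells, 1491.6, 1580.0 and 1631.6 in cisplatin-treated wildtype cells, 746.1, 646.1 and 658.8 in untreated Rb null cells, and 415.1, 440.7 and 480.5 in untreated wildtype cells. All treated arrays lay above all untreated ones, and untreated Rb null lay above untreated wildtype. Cd14 rose by log2 1.31 ± 0.081 in Rb null and 1.79 ± 0.081 in wildtype cells. Msr1 encodes the class A scavenger receptor. It fell in Rb null cells (log2 -0.78 ± 0.22) and stood at -0.18 ± 0.22 in wildtype cells, whereas a second probe set of Msr1 fell in both, by log2 -1.38 ± 0.18 in Rb null and -0.78 ± 0.18 in wildtype cells. The mannose receptor gene Mrc1 had signals of 53.2 to 131.5 and was not tested.

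Adgre1 encodes F4/80, the surface protein by which mouse macrophages are usually recognized. Its signals were 139.9, 113.5 and 122.3 in cisplatin-treated Rb null cells, 293.5, 309.1 and 216.4 in cisplatin-treated wildtype cells, 641.0, 517.9 and 504.9 in untreated Rb null cells, and 376.4, 319.2 and 389.3 in untreated wildtype cells. The 4 groups did not overlap, with untreated Rb null cells highest and treated Rb null cells lowest. Adgre1 fell by log2 -2.06 ± 0.14 in Rb null cells (adjusted p = 1.39e-08). In wildtype cells its change of -0.40 ± 0.14 had an adjusted p of 0.0284 and was under 1.5-fold.

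Ptprc encodes CD45, the phosphatase carried by all white blood cells. It had signals of 65.2, 45.4 and 55.1 in cisplatin-treated Rb null cells, 111.6, 139.4 and 95.4 in cisplatin-treated wildtype cells, 148.0, 180.7 and 169.4 in untreated Rb null cells, and 153.7, 167.9 and 177.0 in untreated wildtype cells. The treated Rb null arrays were lowest and the untreated groups overlapped. Cd53, a tetraspanin of white blood cells, had signals of 150.4, 125.7 and 132.6 in cisplatin-treated Rb null cells, 532.2, 534.7 and 599.2 in cisplatin-treated wildtype cells, 235.2, 201.8 and 206.1 in untreated Rb null cells, and 154.3, 145.4 and 165.6 in untreated wildtype cells. It followed Lyz2 in that treated wildtype cells were highest and untreated Rb null cells next. Cd53 rose by log2 1.77 ± 0.11 in wildtype cells and fell by 0.62 in Rb null cells (SE 0.11).

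Cd52, a short glycosylphosphatidylinositol-anchored glycoprotein of lymphocytes and macrophages, went down with cisplatin in both genotypes. Its signals were 76.9, 18.3 and 19.1 in cisplatin-treated Rb null cells, 95.5, 209.5 and 171.7 in cisplatin-treated wildtype cells, 377.4, 463.5 and 389.2 in untreated Rb null cells, and 452.6, 481.6 and 490.5 in untreated wildtype cells. All treated arrays lay below all untreated ones, and the treated groups did not overlap. The fall was log2 -3.32 ± 0.35 in Rb null and -1.58 ± 0.35 in wildtype cells. Cd74, the invariant chain of class II histocompatibility molecules, fell in wildtype cells (log2 -0.77 ± 0.16) and stood at -0.20 ± 0.16 in Rb null cells. Cd48 and Cd83 lay below the filter, with averages over all arrays of 16.4 and 40.6.

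The genes that direct macrophage formation did not pass in any comparison. Csf1r had signals of 1717.5, 1619.1 and 1727.4 in cisplatin-treated Rb null cells, 1604.9, 1469.2 and 1507.3 in cisplatin-treated wildtype cells, 1519.1, 1442.6 and 1357.6 in untreated Rb null cells, and 1352.4, 1242.7 and 1226.3 in untreated wildtype cells. The groups followed each other closely, and the responses were log2 0.23 ± 0.069 in Rb null and 0.26 ± 0.069 in wildtype cells, both under 1.5-fold. The other tested probe sets of Csf1r, with averages over all arrays of 556.9 and 448.3, passed in no comparison either. Spi1, the gene of PU.1, had signals of 134.2, 109.2 and 84.7 in cisplatin-treated Rb null cells, 179.0, 146.3 and 147.6 in cisplatin-treated wildtype cells, 170.6, 160.5 and 109.9 in untreated Rb null cells, and 117.2, 117.7 and 164.4 in untreated wildtype cells. The treated groups did not overlap, yet the difference of log2 -0.50 ± 0.20 had an adjusted p of 0.0522.

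Among genes of blood cell signalling and cytoskeleton, Lcp1, which encodes the actin bundler L-plastin, had signals of 65.1, 65.8 and 44.8 in cisplatin-treated Rb null cells, 187.2, 96.7 and 115.2 in cisplatin-treated wildtype cells, 284.6, 294.0 and 229.3 in untreated Rb null cells, and 158.5, 187.7 and 186.3 in untreated wildtype cells. It fell by log2 -2.03 ± 0.21 in Rb null cells and stood at -0.44 ± 0.21 in wildtype cells, where the treated and untreated arrays overlapped. Arhgdib rose in wildtype cells (log2 0.73 ± 0.13) and stood at -0.034 ± 0.13 in Rb null cells. Coro1a, an actin-binding protein of white blood cells, fell in both, by log2 -1.13 ± 0.23 in Rb null and -0.77 ± 0.23 in wildtype cells. The wildtype fall did not pass without untreated wildtype replicate 1 or without cisplatin wildtype replicate c (adjusted p up to 0.0651 in limma). Laptm5, a lysosomal membrane protein of blood cells, was lower in Rb null cells after cisplatin (log2 -0.67 ± 0.18). This did not pass with quantile normalization, with a pseudocount of 45.8 or without cisplatin Rb null replicate b. A probe set of Laptm5 marked for cross-hybridization gave -2.03 ± 0.23 for the same difference.

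Itgb2 encodes the beta chain of the leukocyte integrins. It had signals of 134.9, 102.6 and 119.3 in cisplatin-treated Rb null cells, 199.5, 215.7 and 178.9 in cisplatin-treated wildtype cells, 196.8, 203.4 and 172.6 in untreated Rb null cells, and 124.9, 164.8 and 229.8 in untreated wildtype cells. Treated Rb null cells were below treated wildtype cells without overlap, by log2 -0.69 ± 0.18. Its partner chain gene Itgam averaged 50.3 over all arrays and was not tested. Of the membrane subunits of the phagocyte oxidase, Cybb, the catalytic one, fell in Rb null cells (log2 -0.62 ± 0.23, adjusted p = 0.0264). Without any 1 of the treated Rb null arrays this fall did not pass, with an adjusted p of up to 0.149 over the alternatives. Cyba, which is also made by other cells, stood at log2 0.46 ± 0.083 in Rb null cells. Ncf4, a cytosolic subunit, fell in Rb null cells (log2 -0.80 ± 0.18). Alox5ap, which presents arachidonic acid to 5-lipoxygenase, fell in Rb null cells too (log2 -0.68 ± 0.14).

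Set side by side, the genes of the pairs below did not keep fixed proportions to each other across all groups. Other pairs were not computed. The pairs given here were chosen after their values had been seen, and the differences between log2 values are a description without a test. Lyz2 exceeded Adgre1 on the log2 scale by 2.83 to 3.20 in cisplatin-treated Rb null, 3.68 to 4.24 in cisplatin-treated wildtype, 1.72 to 2.13 in untreated Rb null and 1.47 to 1.68 in untreated wildtype cells. Cd53 minus Mpeg1 was 0.77 to 1.33 in cisplatin-treated Rb null, 1.23 to 1.38 in cisplatin-treated wildtype, -0.59 to -0.46 in untreated Rb null and -0.86 to -0.65 in untreated wildtype cells. In both pairs every treated array lay above every untreated array. C1qa minus Csf1r was -4.35 to -3.67 in cisplatin-treated Rb null cells and between -1.73 and -1.32 in the other 3 groups. Mpeg1, at 62.0, and C1qa, at 104.4, averaged below the filter's signal of about 104.6 in cisplatin-treated Rb null cells. Cisplatin-treated wildtype cells had the highest group mean for 18 of the 31 genes, and cisplatin-treated Rb null cells the lowest for 23. The shares of all genes tested with these extremes were not computed, so how unusual the counts are is not known. Whether the share of macrophages differed between the cultures was not tested.

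Promoters of the listed genes were taken from RefSeq on build GRCm38.p6, from 250 bases before to 50 bases after the annotated start. Of the 39 genes, 25 matched with 31 windows. The motif searched was GAGGAAGT, a core bound by PU.1 and other ETS factors, on both strands, so that ACTTCCTC counts as well. It was present in 3 of the 31 windows (9.68%) and in 3.2% of all 32851 windows, and the 3 windows belong to C1qc, Cd53 and Ctss. All 3 genes fell in Rb null cells after cisplatin, where 20 of the 31 tested genes and 20.3% of all genes fell. In wildtype cells Ctss and Cd53 rose. Mpeg1 is shown beside them as a gene that fell too in Rb null cells and whose window holds no such letters. A link between the motif and the fall was not tested. Each sequence is given 5′ to 3′ on the strand of the gene, with the motif in capitals, for C1qc at chr4:136892865-136893164 (minus strand), Cd53 at chr3:106790100-106790399 (minus strand), Ctss at chr3:95526536-95526835 (plus strand) and Mpeg1 at chr19:12460520-12460819 (plus strand).
C1qc: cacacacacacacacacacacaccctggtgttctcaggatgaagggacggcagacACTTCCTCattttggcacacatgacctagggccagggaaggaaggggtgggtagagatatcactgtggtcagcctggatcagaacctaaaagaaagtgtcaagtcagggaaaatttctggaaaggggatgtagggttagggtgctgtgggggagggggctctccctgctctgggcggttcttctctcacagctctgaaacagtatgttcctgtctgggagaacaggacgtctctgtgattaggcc
Cd53: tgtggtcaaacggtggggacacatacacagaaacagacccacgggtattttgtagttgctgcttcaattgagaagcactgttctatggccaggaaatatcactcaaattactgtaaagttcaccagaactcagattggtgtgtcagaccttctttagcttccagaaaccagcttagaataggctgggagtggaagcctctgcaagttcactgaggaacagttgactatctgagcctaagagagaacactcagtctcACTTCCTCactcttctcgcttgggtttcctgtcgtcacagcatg
Ctss: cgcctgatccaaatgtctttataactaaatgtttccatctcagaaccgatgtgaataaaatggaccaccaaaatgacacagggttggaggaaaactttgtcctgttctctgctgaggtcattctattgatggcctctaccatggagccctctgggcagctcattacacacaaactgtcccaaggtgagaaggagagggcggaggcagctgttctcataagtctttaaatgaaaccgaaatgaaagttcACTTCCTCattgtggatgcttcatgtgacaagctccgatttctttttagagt
Mpeg1: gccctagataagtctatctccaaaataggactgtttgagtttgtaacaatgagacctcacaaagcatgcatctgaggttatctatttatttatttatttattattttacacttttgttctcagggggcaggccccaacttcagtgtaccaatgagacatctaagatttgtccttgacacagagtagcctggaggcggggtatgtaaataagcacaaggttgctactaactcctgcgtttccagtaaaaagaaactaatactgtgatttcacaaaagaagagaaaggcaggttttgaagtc
The match starts at base -195 from the start site in C1qc, at -2 in Ctss and at 7 in Cd53, in each case as ACTTCCTC, the motif on the opposite strand. The letters CCAAT were present in 8 of the 31 windows (25.8%) against 37.4% of all windows, and TATAAA in 4 (12.9%) against 13.6%, each on either strand. A match describes letters in the window and is not a measured binding site.

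Genes that surround this biology were described from further lists. Of 68 other leukocyte genes, 22 were tested, and after cisplatin 8 of them were lower and 0 higher in Rb null cells, where 13.3% of all genes were lower and 9.67% higher. The chemokine gene Ccl9 averaged 187.3 ± 8.0 in cisplatin-treated Rb null and 1179.6 ± 118 in cisplatin-treated wildtype cells, and 140.2 ± 18.6 in untreated Rb null and 116.3 ± 16.2 in untreated wildtype cells. It rose in wildtype cells by log2 3.23 ± 0.13. The C-type lectin gene Clec4d followed, with 148.6 ± 3.03 in cisplatin-treated Rb null, 394.2 ± 55.5 in cisplatin-treated wildtype, 217.9 ± 9.49 in untreated Rb null and 137.7 ± 12.7 in untreated wildtype cells. Ms4a7, a membrane protein of macrophages, was lower in Rb null cells after cisplatin (log2 -1.18 ± 0.15), as was the receptor gene C5ar1 for the complement fragment C5a (-1.08 ± 0.22). In the cisplatin response of Rb null cells 5 of the 22 fell and 3 rose, where 20.3% of all genes fell and 16.6% rose. In that of wildtype cells 2 fell and 5 rose, where 12.7% fell and 14.8% rose. Both pairs of counts lie near those shares.

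Of 8 genes for growth factors and attractants of macrophages, 5 were tested, and after cisplatin 1 was lower and 1 higher in Rb null cells. Over all genes 13.3% were lower and 9.67% higher. Csf1, the growth factor that signals through Csf1r, averaged 2127.1 ± 88.0 in cisplatin-treated Rb null, 3281.6 ± 245 in cisplatin-treated wildtype, 4128.6 ± 500 in untreated Rb null and 4807.4 ± 395 in untreated wildtype cells. It was lower in Rb null than in wildtype cells after cisplatin (log2 -0.62 ± 0.090) and fell in Rb null cells (-0.95 ± 0.090). The chemokine gene Cxcl12 was the higher one, at 1232.4 ± 95.6 in cisplatin-treated Rb null and 631.2 ± 25.8 in cisplatin-treated wildtype cells (log2 0.95 ± 0.091). The monocyte attractants Ccl2 and Ccl7 rose in Rb null cells, by log2 1.22 ± 0.094 and 0.96 ± 0.16. In that response 2 of the 5 rose and 2 fell, where 16.6% of all genes rose and 20.3% fell. Cxcl12 fell with cisplatin in both genotypes, by log2 -1.61 ± 0.091 in Rb null and -1.97 ± 0.091 in wildtype cells. Of 20 tested genes for lysosomal proteins of all cells, 5 were lower and 2 higher in Rb null cells after cisplatin, beside 13.3% lower and 9.67% higher among all genes. The galactosidase gene Glb1 was lower (log2 -1.38 ± 0.12) and the mannosidase gene Man2b1 higher (1.27 ± 0.075).

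Markers of other cell types were measured beside these genes. None of the listed markers was at 0, and most lay below the filter. For T cells 1 of the 7 genes with a probe set was tested, for B cells 0 of 5, neutrophils 2 of 7, mast cells 1 of 6, osteoclasts 1 of 5, erythroid cells 0 of 3 and endothelial cells 2 of 7. The summed signal of the B cell markers was 262.3 to 270.7 in cisplatin-treated Rb null, 221.4 to 302.8 in cisplatin-treated wildtype, 165.5 to 193.3 in untreated Rb null and 195.5 to 337.7 in untreated wildtype cells. For the neutrophil markers it was 479.9 to 517.6 in cisplatin-treated Rb null, 398.0 to 494.0 in cisplatin-treated wildtype, 319.7 to 367.0 in untreated Rb null and 413.2 to 480.4 in untreated wildtype cells. The T cell markers summed to 708.6 to 806.4 in cisplatin-treated Rb null, 516.7 to 668.5 in cisplatin-treated wildtype, 464.5 to 493.6 in untreated Rb null and 373.7 to 598.1 in untreated wildtype cells, and the kinase gene Zap70, the 1 tested, rose in Rb null cells (log2 0.73 ± 0.19). Zap70 alone averaged 594.8 in cisplatin-treated Rb null cells and made up most of that sum. Of the 7 T cell markers with a probe set, 6 stayed below 100 on all arrays. Summed mast cell markers lay between 313.9 and 420.8 over all arrays. Summed erythroid markers were 82.0 to 88.2 in cisplatin-treated Rb null, 31.0 to 81.1 in cisplatin-treated wildtype, 25.6 to 101.8 in untreated Rb null and 41.5 to 114.6 in untreated wildtype cells. Summed endothelial markers were 388.4 to 506.8 in cisplatin-treated Rb null, 463.1 to 544.1 in cisplatin-treated wildtype, 682.2 to 867.2 in untreated Rb null and 950.1 to 1404.8 in untreated wildtype cells. The osteoclast marker and cysteine protease gene Ctsk rose in wildtype cells (log2 1.36 ± 0.18) and was lower in Rb null than in wildtype cells after cisplatin (-1.24 ± 0.18). Summed osteoclast markers were 266.6 to 362.6 in cisplatin-treated Rb null, 619.1 to 697.2 in cisplatin-treated wildtype, 279.3 to 363.4 in untreated Rb null and 273.0 to 488.4 in untreated wildtype cells. Ctsk alone averaged 515.3 in cisplatin-treated wildtype cells and made up most of that sum. Of the 5 osteoclast markers, 3 stayed below 100 on all arrays.

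Fibroblast markers, all 11 of which were tested, moved as well. After cisplatin 7 of the 11 were lower in Rb null cells and 0 higher, beside 13.3% and 9.67% of all genes. The difference of responses was negative for 8 and positive for 0, beside 15% and 8.7% of all genes. Their summed signal was 44267.9 to 44971.6 in cisplatin-treated Rb null, 57304.8 to 59715.3 in cisplatin-treated wildtype, 64337.5 to 66817.6 in untreated Rb null and 64247.0 to 67387.9 in untreated wildtype cells. The proteoglycan gene Lum averaged 93.2 ± 9.24 in cisplatin-treated Rb null, 960.5 ± 43.9 in cisplatin-treated wildtype, 155.5 ± 26.7 in untreated Rb null and 102.3 ± 12.2 in untreated wildtype cells. The related gene Dcn averaged 253.7 ± 27.8 in cisplatin-treated Rb null, 761.8 ± 80.3 in cisplatin-treated wildtype, 316.9 ± 42.2 in untreated Rb null and 301.1 ± 35.5 in untreated wildtype cells. Both rose in wildtype cells, Lum by log2 3.11 ± 0.14 and Dcn by 1.31 ± 0.13. Of the 11 markers, 4 rose and 4 fell in wildtype cells, with a median log2 change of 0.07, where 14.8% of all genes rose and 12.7% fell. The growth factor receptor gene Pdgfrb averaged 130.4 ± 17.0 in cisplatin-treated Rb null, 492.3 ± 26.5 in cisplatin-treated wildtype, 932.8 ± 23.3 in untreated Rb null and 956.1 ± 47.7 in untreated wildtype cells. It fell in Rb null cells (log2 -2.75 ± 0.094). Its mean was lower after cisplatin in wildtype cells too, and the responses differed by log2 -1.81 ± 0.13. The part of fibroblast, osteoclast or RNA quality markers in the macrophage and leukocyte results was not tested.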

How the data were processed

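The deposited values are signal intensities per probe set, made by the authors with MAS5, per the submitters' processing notes; its version, scaling target and detection calls are not given in the sources used here. The mean of each array, trimmed by 2% at each end, was 500.1 or 500.2, so that scale was kept. No background level is known for a single probe set, and the number of arrays limits the precision. Of 22690 probe sets, 64 controls and then the 40% with the lowest mean log2 signal were left out, which left 13575. The filter lies at a signal of about 104.6. Sample labels gave the groups.

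For log2(signal + 10.4), limma 3.58.1 (R 4.3.3) estimated 1 mean per group from the 12 arrays together (lmFit, eBayes with a variance trend, two-sided, 8 residual and 6.09 prior degrees of freedom). The pseudocount is the 10th percentile of all values. Contrasts were Rb null minus wildtype after cisplatin and untreated, cisplatin minus untreated in each genotype, and the difference of these responses. The script was tested on simulated data. The annotation named a single gene for 20380 probe sets, several for 691 and had no entry for 1555. Each gene is given by 1 tested probe set, one marked for cross-hybridization (_x_at and the like) only where no other was tested, then the one with the highest mean.

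All 39 listed genes were to be named, with up to 4 passing genes with the largest change from each other list and contrast, the 10 genes of most similar profile, and Rb1, Xist and Eif2s3y. Members and lists were chosen with earlier results of these data known. Results were recomputed with a pseudocount of 1 or 45.8, no filter or one at 60%, median centring, quantile normalization, an untrended prior variance, only the groups compared, other fold minimums, the weakest probe set, a replicate block, leaving out each array, and a fit without untreated wildtype arrays.

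Hybridization numbers did not pair the arrays: deviations of same-numbered Rb null and wildtype arrays correlated between -0.186 and 0.109.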

Additional observations from a re-analysis of the deposited data

Results flagged for a closer look

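The response to cisplatin differed between Rb null and wildtype cells for 19 genes, tested as an interaction with limma (adjusted p under 0.05 and at least 1.5-fold). All differences are Rb null minus wildtype on the log2 scale. Among bactericidal and lysosomal genes they were -2.90 for Lyz2, -2.76 for Lyz1, whose probe set can cross-hybridize, -2.18 for Ctss, -1.88 for Mpeg1 and -1.08 for Slc11a1. The C1q genes stood at -2.58 for C1qa, -1.70 for C1qb and -1.68 for C1qc. The adaptor genes stood at -1.86 for Fcer1g and -1.38 for Tyrobp. Surface protein genes stood at -2.39 for Cd53, -1.74 for Cd52, -1.65 for Adgre1 and -0.93 for Ptprc, and the integrin gene Itgb2 at -0.86. Signalling and cytoskeletal genes stood at -1.59 for Lcp1, -0.83 for Laptm5 and -0.76 for Arhgdib, and the lipid mediator gene Alox5ap at -0.94. These comparisons use the untreated wildtype arrays, which differ from the others in sex-linked transcripts, and the part of that difference was not tested. C1qa, Fcer1g, Mpeg1, Ptprc, Cd52 and Lcp1 averaged below the filter's signal in treated Rb null cells. They passed the filter only through groups where they were higher.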

How the results depend on the processing

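Of 76 passing differences of the 31 genes over the 5 comparisons, 44 passed under every alternative in which they could be computed, 32 were lost under at least 1, and 0 changed direction while passing. A further 26 differences that had not passed did so under at least 1. The genes higher in untreated Rb null cells were the least stable: 2 in place of 5 with the larger pseudocount, quantile normalization or median centring, 3 without the filter or with the weakest probe sets, and 0 at a minimum of 2-fold. Without the filter Cd83 was the 1 lower gene there. Leaving out 1 array gave 2 to 5 higher, with 2 without untreated Rb null replicate 1 and 3 without untreated wildtype replicate 2. Msr1 lost this result under 15 of 23 alternatives. Without the filter Lyz1 is read by its probe set free of cross-hybridization and passed in no comparison.

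At the 60% filter only 12 of the 31 genes were tested, and shares of all genes were not computed there. Of these, 8 were lower in Rb null cells after cisplatin (median -1.13), 0 fell in wildtype cells (median 0.58), 7 fell and 1 rose in Rb null cells, and 8 had a negative difference of responses (median -1.51). In wildtype cells 15 rose and 6 fell with no fold minimum, 5 rose and 1 fell at 2-fold, and 5 fell with the weakest probe sets. Leaving out 1 array gave 2 to 5 falling there, with 5 without cisplatin wildtype replicate a, 2 without its replicate c and 2 without untreated wildtype replicate 1. In Rb null cells 4 rose with no fold minimum and 12 fell at 2-fold. The median response of Rb null cells was -0.62 with the larger pseudocount and -0.63 without the filter and under median centring. The difference of responses was positive for 1 gene, Cd74, under quantile normalization and median centring, and for 0 to 1 when 1 array was left out.

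With hybridization number as a replicate block, possible only between genotypes, 4 genes were higher in untreated Rb null cells, as Msr1 was lost, and 19 were lower after cisplatin and 19 in the difference of responses. No paired analysis was possible for the responses because treated and untreated hybridizations share no numbers. Median centring moved the median response of all genes to 0.13 in Rb null and 0.10 in wildtype cells. The share rising among passing genes in Rb null cells was 44.9% as reported and 58.0% under median centring. Signals near the filter limit what can be seen for the 7 genes not tested.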

Other observations

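A second cross-hybridizing probe set of Lyz1 scattered widely in cisplatin-treated wildtype cells, at 701.1, 2178.0 and 4591.2, while the probe set used gave 5797.6, 5304.5 and 5381.3 there. The genes outside the list whose 4 group means lay nearest to the mean profile of the 18 leukocyte-restricted genes were Bpnt1, Pomk, Ms4a7, Mfsd6, Bst2, Gpd2, Paqr7, Osbpl9, Rai14 and Tbx15. Their Euclidean distances, from 0.0921 for Bpnt1 to 0.158 for Tbx15 on the log2 scale, rest on 4 group means and are a description. Only Ms4a7 of these stood on the list of other leukocyte genes.

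The endothelial marker Flt1, a receptor for vascular endothelial growth factor, averaged 118.9 ± 8.81 in cisplatin-treated Rb null, 145.7 ± 10.6 in cisplatin-treated wildtype, 416.0 ± 7.40 in untreated Rb null and 706.0 ± 86.0 in untreated wildtype cells (SD, n = 3 hybridizations). It fell with cisplatin in both genotypes in limma's test, by log2 -1.72 ± 0.11 in Rb null and -2.19 ± 0.11 in wildtype cells. Evi2a, counted here among other leukocyte genes, rose in both, by log2 2.26 ± 0.12 in Rb null and 2.62 ± 0.12 in wildtype cells.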
